A study of Arabidopsis thaliana with 6 samples.

Results

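NAC proteins are plant-specific transcription factors, named after NAM, ATAF1/2 and CUC2, with a conserved DNA-binding domain at the N terminus and a variable regulatory part at the C terminus. The stress-related NAC genes described here were chosen by locus and are 9 of the 27981 genes on the arrays. They form 3 groups, namely the membrane-tethered factors NAC089 and NAC060, the trio RD26 (ANAC072), ANAC019 and ANAC055, and the ATAF subfamily with ATAF1, ANAC032, ATAF2 and ANAC102. The table holds 11 features for them, 3 for RD26 and 1 for each other gene. RD26 is represented by its brightest feature, taken as the mean of all arrays.

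The arrays compare germinated Col-0 seeds at radicle protrusion after 72 h in polyethylene glycol (PEG, -2.5 MPa, 3 arrays) with seeds frozen untreated at the same stage (3 arrays). PEG is an osmoticum that withholds water, and the comparison addresses which transcripts change when desiccation tolerance (DT) is brought back in germinated seeds. Incubation in PEG took place in the dark at 20 °C, whereas all seeds had germinated under constant white light at 22 °C after 72 h of stratification at 4 °C. Osmotic stress, darkness, temperature and time therefore cannot be told apart. Each array was made from 50 ng of RNA of a separate pool of seeds, harvested from at least a pair of plants.

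Many stress-related NAC genes respond to drought, salt or abscisic acid (ABA) in Arabidopsis seedlings and leaves. RD26, ANAC019 and ANAC055 bind the promoter of the drought-inducible gene ERD1, and members of the ATAF subfamily act in ABA signalling, wounding and senescence. Membrane-tethered NAC factors are held at a membrane by a hydrophobic segment near the C terminus and move to the nucleus once that segment is lost.

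Values are log2 expression as deposited, and for the comparison values under 4 were set to 4, the floor that the study's methods give for its arrays with ABA. The limits for calling a gene were 0.01 for limma's p, adjusted over all features by Benjamini-Hochberg, and 2 for the size of the log2 fold change, at or past both. All changes below are PEG minus untreated on the log2 scale. Both limits were passed by 2.72 % of all genes, 1.08 % with higher and 1.64 % with lower levels after PEG, and by 2.75 % of the 35986 features. Since 3 arrays against 3 cannot give an exact permutation p under 0.1 for a single gene, the values of each array are given.

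Array medians were 4.81 to 4.97, and 38.2 to 41.6 % of the features lay under the floor on an array. Pearson's r across features was 0.982 to 0.992 within groups and 0.898 to 0.924 between groups. Of the seed storage markers, CRA1 and CRU3 were above the floor on every array and much higher after PEG, and the summed level of the 3 storage markers was 12.44 to 12.67 in PEG seeds and 6.62 to 7.33 in untreated seeds. SESA1 lay near the floor in both groups. The summed level of 3 endosperm markers was 9.89 to 10.11 after PEG and 9.25 to 9.38 in untreated seeds, but its members went opposite ways, with log2 differences of 2.88 for MAN7, 0.47 for EXPA2 and -0.98 for EPR1, none with overlapping groups. The sum of 3 green cotyledon markers was 11.16 to 11.27 after PEG and 11.40 to 11.68 in untreated seeds. It was carried by RBCS1A (-0.16, groups overlapping), while CAB3 (-3.08) and CAB1 (-1.09) were lower after PEG without overlap. The sum of 3 root hair markers (EXPA7, COBL9 and RHD6) was 4.64 to 4.98 after PEG and 5.11 to 5.58 in untreated seeds. EXPA7 and COBL9 were under the floor on all arrays. The part of these tissues in the values below was not tested, and in whole seeds fewer cells of a type and less RNA per cell cannot be told apart.

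Among the 9 genes, only NAC089 and NAC060 were called, both with higher transcript levels after PEG, and no gene was called lower. ANAC102 passed the limit on p with a smaller, negative change. RD26, ANAC032, ATAF2 and ATAF1 had adjusted p between 0.0126 and 0.0431, and ANAC019 and ANAC055 lay under the floor on all arrays. At an adjusted p of 0.05 or less, 4 of the 9 were higher and 3 lower, where 27.7 % of all genes passed, 13 % higher and 14.7 % lower. All genes include 10763 under the floor on all arrays, which cannot pass. The 9 genes were chosen with earlier results of these data known, so these counts are descriptions only.

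**Figure D1:**
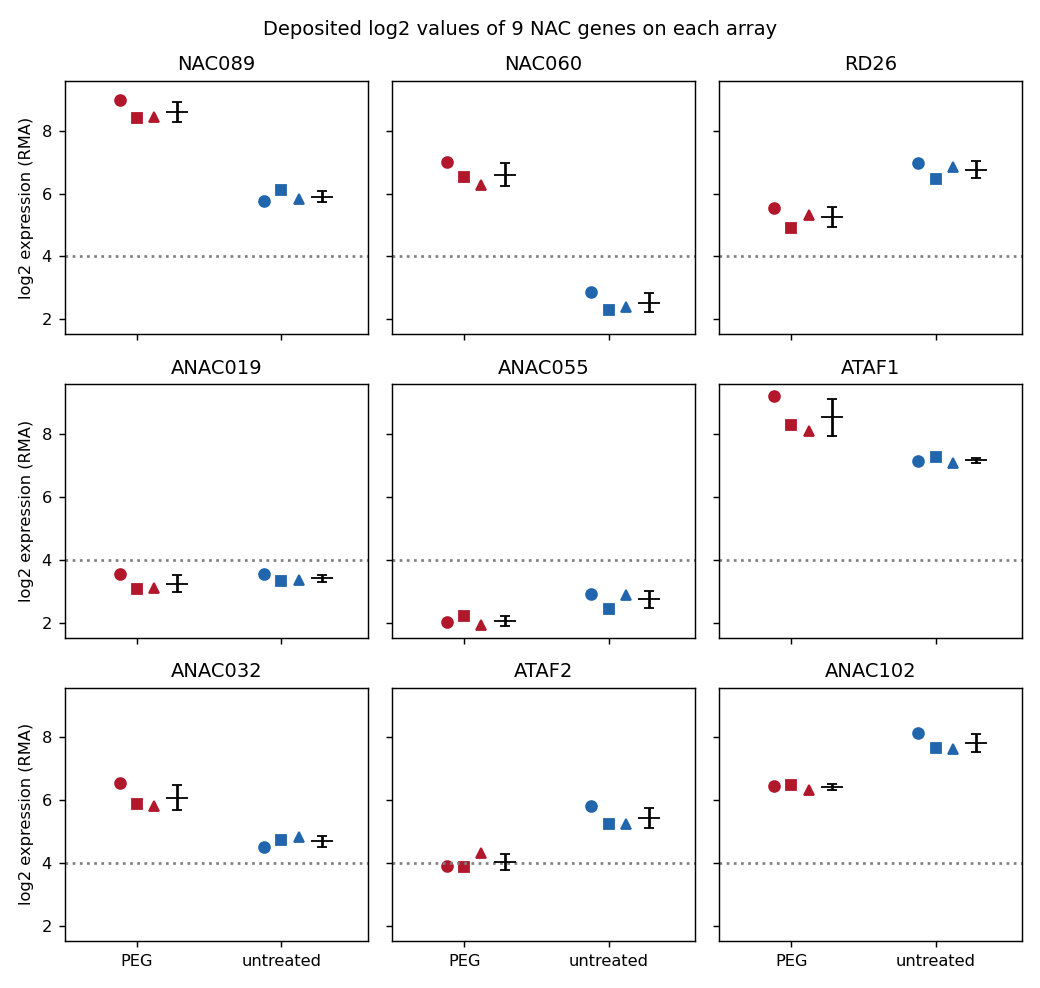
Deposited log2 expression (RMA, vertical axis) of the 9 genes on each array, PEG in red and untreated in blue, with circles, squares and triangles for replicates 1, 2 and 3. Black bars are the mean and SD of 3 arrays and the dotted line is the floor of 4. NAC060 crosses the floor between the groups, while ANAC019 and ANAC055 stay under it.

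NAC089 (AT5G22290) encodes a membrane-tethered factor that represses floral initiation and takes part in the response to endoplasmic reticulum stress. Its log2 level was 8.97, 8.39 and 8.44 on the PEG arrays and 5.77, 6.11 and 5.82 on the untreated arrays. The groups did not overlap and PEG replicate 1 was the highest. NAC089 rose by 2.70 (SE 0.21, 95 % interval 2.15 to 3.25, limma adjusted p = 0.00212), which is 6.49-fold, with means of 8.60 ± 0.32 after PEG and 5.90 ± 0.18 in untreated seeds (SD, n = 3 each).

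NAC060 (AT3G44290), the other membrane-tethered member, acts as a brake on the response to sugar and ABA in seedlings. PEG arrays had 6.99, 6.54 and 6.27, and untreated arrays 2.86, 2.30 and 2.39. The transcript was thus under the floor in all untreated seeds and well above it after PEG. With the floor it rose by 2.60 (SE 0.20, 95 % interval 2.05 to 3.15, limma adjusted p = 0.00226), or at least 6.06-fold, since the untreated level is a bound. The floor also leaves no spread in the untreated group, which enters the SE, the interval and this p. For the same reason the upper end of the interval does not limit the rise. The deposited values differed by 4.08, a size that rests on untreated values under the floor and is not read as measured.

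The changes of NAC089 and NAC060 cannot be compared in size, since that of NAC060 is a lower bound. With the floor, the difference between both genes on an array was 2.0 ± 0.16 after PEG and 1.90 ± 0.18 in untreated seeds (SD, n = 3 each), a change of 0.10 (exact permutation test, two-sided, p = 0.5). In untreated seeds this is the level of NAC089 minus a constant, so the value is set by where the floor lies, and without the floor it was -1.38.

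Both calls depended on single arrays. NAC089 and NAC060 were both called without PEG replicate 1, only NAC060 without PEG replicate 3, only NAC089 without untreated replicate 2, and neither without PEG replicate 2, untreated replicate 1 or untreated replicate 3. In these 6 fits limma's adjusted p was 0.00444 to 0.0140 for NAC089 and 0.00305 to 0.0151 for NAC060, while the log2 fold changes stayed at 2.51 to 2.80 and 2.40 to 2.77. With features above the floor on fewer than 3 arrays left out before the fit, NAC089 was called whichever array was dropped. NAC060 passes that filter through its PEG arrays alone, so its calls there are no support. This is a pairing of settings that was added once the results were known.

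**Figure D2:**
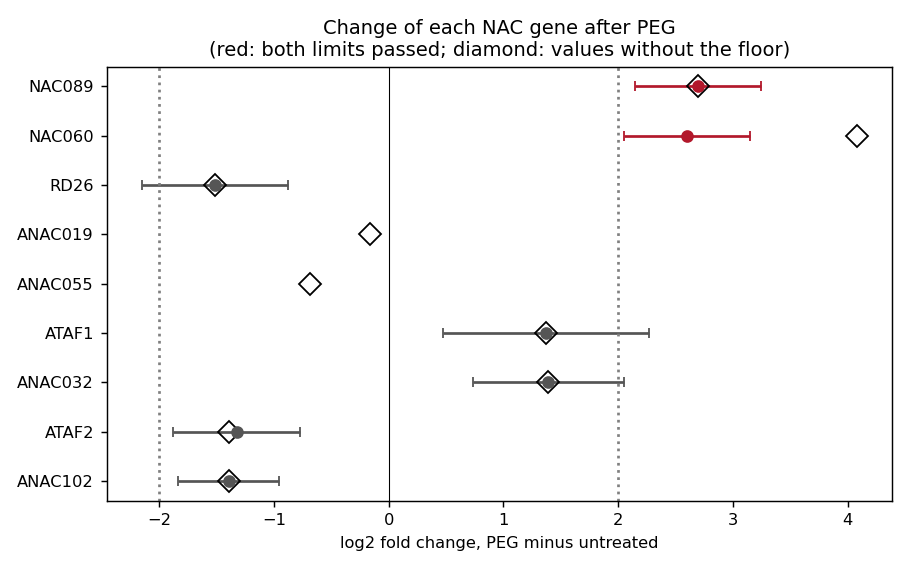
Log2 fold change (PEG minus untreated, horizontal axis) of each gene with its 95 % interval from limma, n = 3 arrays per group. Red marks genes past both limits, diamonds the change of the deposited values without the floor, dotted lines the fold limit of 2. NAC060 stands at 2.60 with the floor, where its interval holds no spread of the untreated arrays, and its diamond at 4.08 rests on untreated values under the floor.

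RD26 (AT4G27410), named as responsive to desiccation, encodes an activator of ABA-inducible and drought-inducible genes. Its level was 5.53, 4.89 and 5.32 on the PEG arrays and 6.97, 6.45 and 6.86 on the untreated arrays. Each PEG array thus lay under each untreated array. The change was -1.51 (SE 0.24, 95 % interval -2.15 to -0.88, limma adjusted p = 0.0128), and RD26 missed both limits. Its other features, which may share probes, had -1.32 (adjusted p = 0.0279) and -1.003 (adjusted p = 0.0900), and in all 3 features the groups did not overlap.

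ANAC019 (AT1G52890) and ANAC055 (AT3G15500) are close relatives of RD26 that act in jasmonate signalling downstream of MYC2. ANAC019 had 3.56, 3.06 and 3.10 on PEG arrays and 3.55, 3.32 and 3.35 on untreated arrays. ANAC055 had 2.03, 2.23 and 1.91 after PEG and 2.92, 2.44 and 2.87 in untreated seeds. All these values lie under the floor, so the main fit gives no change for either gene. On the deposited values ANAC019 differed by -0.16 (limma without the floor, adjusted p = 0.543) and ANAC055 by -0.69 (adjusted p = 0.0153), and both ANAC019 groups overlapped whereas those of ANAC055 did not.

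The ATAF subfamily was divided, with ATAF1 and ANAC032 at higher and ATAF2 and ANAC102 at lower levels after PEG. The 4 changes were of like size, between 1.37 and 1.39 for the higher pair and between -1.40 and -1.33 for the lower pair. In each of the 4 genes all PEG arrays lay on the same side of all untreated arrays. Over the 9 genes, 4 had PEG arrays above and 4 below without overlap, where 46.9 % of all genes did not overlap, 21.6 % above and 25.3 % below. Those below include ANAC055, which lay under the floor on all arrays. These are deposited values, and the shares of all genes also count values under the floor.

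ATAF1 (AT1G01720) encodes a regulator of ABA-related drought responses that can activate the ABA synthesis gene NCED3. PEG arrays had 9.21, 8.27 and 8.11 and untreated arrays 7.13, 7.26 and 7.09. PEG replicate 1 stood well above the other PEG arrays, so that the spread was 0.59 (SD) after PEG and 0.09 in untreated seeds. ATAF1 differed by 1.37 (SE 0.33, 95 % interval 0.48 to 2.27, limma adjusted p = 0.0431). Without PEG replicate 1 the difference was 1.03 with an adjusted p of 0.00955, still under the fold limit.

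ANAC032 (AT1G77450) encodes a factor of leaf senescence and salt, sugar and xenobiotic responses. Its level was 6.55, 5.87 and 5.83 on PEG arrays and 4.50, 4.72 and 4.85 on untreated arrays. Again PEG replicate 1 was the highest. The difference was 1.39 (SE 0.24, 95 % interval 0.73 to 2.05, limma adjusted p = 0.0178).

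ATAF2 (AT5G08790) encodes a wound-inducible factor that represses defence genes and brassinosteroid-inactivating enzymes. PEG arrays had 3.91, 3.89 and 4.32, and untreated arrays 5.81, 5.24 and 5.25. On 2 of the 3 PEG arrays the value lay just under the floor. With the floor ATAF2 differed by -1.33 (SE 0.21, 95 % interval -1.88 to -0.77, limma adjusted p = 0.0126) and on the deposited values by -1.39.

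ANAC102 (AT5G63790) is needed for germination of seeds exposed to low oxygen. The level was 6.47, 6.48 and 6.32 on the PEG arrays and 8.14, 7.67 and 7.65 on the untreated arrays. The PEG arrays lay close together, with a mean of 6.42 ± 0.09 against 7.82 ± 0.28 in untreated seeds (SD, n = 3 each). ANAC102 differed by -1.40 (SE 0.16, 95 % interval -1.83 to -0.96), passed the limit on p (limma adjusted p = 0.00593) and missed the fold limit. It kept the limit on p only without untreated replicate 1, and in the other 5 fits with 1 array left out the adjusted p was up to 0.0295.

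Within the ATAF subfamily, the difference between 2 genes on the same array was followed from group to group. For ATAF1 and ANAC032 it was 2.45 ± 0.19 after PEG and 2.47 ± 0.20 in untreated seeds, a change of -0.02 (exact permutation test, two-sided, p = 1). For ATAF2 and ANAC102 it was -2.31 ± 0.28 and -2.38 ± 0.05 (SD, n = 3 each), a change of 0.07 (exact p = 1). For ATAF1 and ATAF2 it was 4.42 ± 0.72 after PEG and 1.73 ± 0.36 in untreated seeds, a change of 2.70 without overlap of the groups (exact p = 0.1, the smallest that 3 arrays against 3 can give, and 0.4 after Benjamini-Hochberg adjustment over the 4 pairs tested, NAC089 with NAC060 included). The level of such a difference also holds the response of the probes, so that only its change between groups is read, and a p of 1 does not show that both genes changed alike. In the RefSeq gene table, another gene overlaps ATAF1 (2 genes), ATAF2 (1) and ANAC102 (1), and whether probes lie in the overlap was not tested.

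The outcome on p depended on how low values were treated. With the floor, 3 of the 9 genes (NAC089, NAC060 and ANAC102) passed the limit on p whatever their fold change, where 14.7 % of all genes did, 6.59 % higher and 8.09 % lower after PEG. Without the floor 7 did, against 25.5 % of all genes, and 7 did when features above 4 on fewer than 3 arrays were left out, against 46.7 % of the genes kept. That filter leaves out ANAC019 and ANAC055, so the 7 are all of the 9 genes that it keeps. NAC060 was kept by that filter through its PEG arrays alone. In both settings RD26, ATAF1, ANAC032 and ATAF2 joined the other 3, their log2 fold changes stayed under 2 in size, and the genes past both limits were again NAC089 and NAC060.

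**Figure D3:**
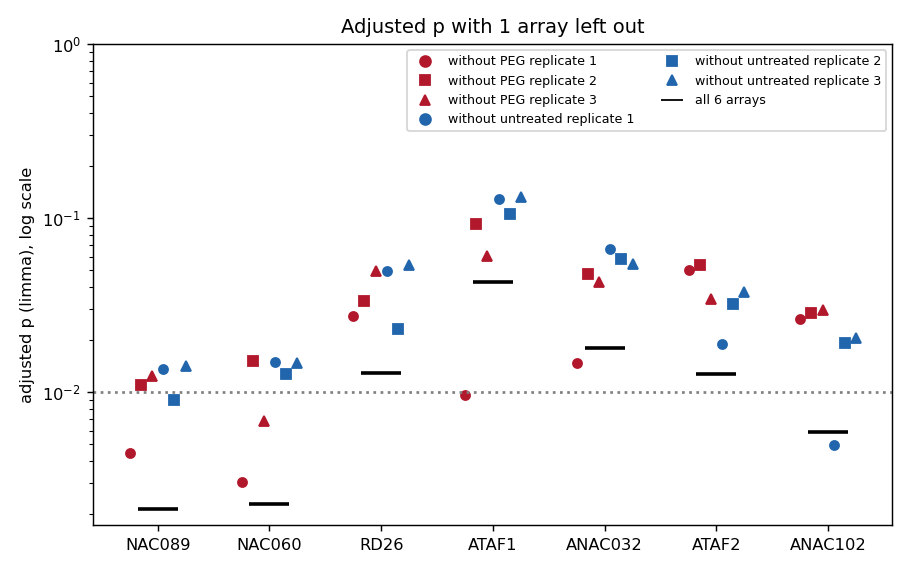
Adjusted p from limma (vertical axis, log scale) for the 7 genes above the floor on at least 3 arrays, with all 6 arrays (black bar) and with each array left out, red for PEG arrays and blue for untreated arrays. The dotted line is the limit of 0.01. Only NAC089, NAC060 and ANAC102 lie under it with all arrays, and ATAF1 does without PEG replicate 1.

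Replicate arrays did not contribute alike. Of the 7 genes above the floor on at least 3 arrays, 5 were highest on PEG replicate 1 among the PEG arrays, where 34.5 % of 16058 genes were. Among the untreated arrays 4 of the 7 were highest on replicate 1, where 27.8 % of the genes were. These 7 are not independent, and no test was made.

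The gene table names 92 other NAC genes, of which 51 were under the floor on all arrays. None was called by limma with both limits, while 19 had an unadjusted p under 0.05, 10 higher and 9 lower, where 35.2 % of all genes had, 16.8 % higher and 18.4 % lower. At an adjusted p of 0.01 or less 2 were higher and 4 lower, where 6.59 % of all genes were higher and 8.09 % lower. The median log2 fold change was 0.00 in the 92 genes, in the 9 described here and in all genes. Genes under the floor on all arrays have no change, namely 51 of the 92, 2 of the 9 and 10763 of all genes. These medians are therefore set by the floor and show no likeness of response. NAC089 and NAC060 were the only genes of the family past both limits with the floor. Without it 3 further genes, all lower after PEG, were called, namely NAC015, NAC048 and NTM1. NAC015 and NTM1 lay under the floor on all PEG arrays and NAC048 on all but PEG replicate 3, so the sizes of these changes are not read as measured.

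**Figure D4:**
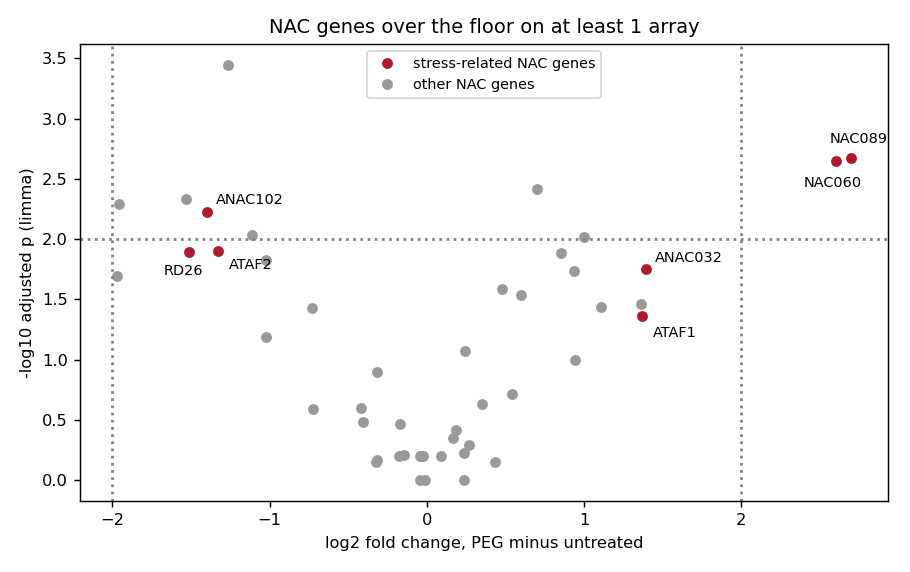
Log2 fold change (PEG minus untreated, horizontal axis) and -log10 of limma's adjusted p (vertical axis) of the NAC genes above the floor on at least 1 array, the genes described here in red and the other NAC genes in grey. Dotted lines are the limits. Only NAC089 (2.70) and NAC060 (2.60) lie past both.

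Among the other NAC genes, 3 are also named by the study among transcription factors of its ABA network. NAC048 (AT3G04420) had 2.29, 3.01 and 4.65 on PEG arrays and 6.08, 6.28 and 6.15 on untreated arrays. Its change of -1.95 with the floor (limma adjusted p = 0.00512) fell just short of the fold limit. On the deposited values it was -2.85, which passed that limit but rests in part on PEG values under the floor. NAC048 was also called without PEG replicate 3, at -2.17 (limma adjusted p = 0.00306), where both PEG arrays left are set to the floor. Its other feature, under the floor on all PEG arrays, had -1.66 with the floor (adjusted p = 0.00342) and -2.76 on the deposited values. NAC083, also known as VNI2 and an inhibitor of xylem vessel formation, differed by -1.02 (adjusted p = 0.0149). ANAC053, which is membrane-tethered, differed by 0.60 (adjusted p = 0.0293).

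The remaining NAC genes past the limit on p had smaller changes. NAC042, a factor that delays senescence, averaged 4.18 ± 0.16 after PEG and 5.71 ± 0.25 in untreated seeds (SD, n = 3 each; -1.53, limma adjusted p = 0.00464). NAC2 (AT3G15510), which acts in the development of the seed integument, was under the floor on all PEG arrays and at 5.21, 5.24 and 5.35 on untreated arrays. Its change of -1.27 (limma adjusted p = 0.000357) is a bound, since the floor sets the PEG level and leaves it no spread. NAC082 differed by 1.0 (adjusted p = 0.00969) and NAC050 by 0.70 (adjusted p = 0.00386).

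Since both called genes encode membrane-tethered factors, 12 other NAC genes of that kind were listed, of which ANAC016 lay under the floor throughout. None was called by limma and 8 had an unadjusted p under 0.05, beside 35.2 % of all genes. Of the 12, 8 had higher and 3 lower values after PEG, where 8343 of all 27981 genes were higher and 8875 lower. The median log2 fold change was 0.54, beside 0.00 over all genes, a value set by the floor. At an adjusted p of 0.05 or less 6 were higher, namely NTL8 (1.36), NTL9 (1.11), ANAC014 (0.94), ANAC017 (0.85), ANAC053 (0.60) and ANAC069 (0.48), and 1 was lower. Of all genes 13 % were higher and 14.7 % lower at that limit, but 10763 of them lay under the floor on all arrays and cannot pass, against 1 of the 12. ANAC069 was under the floor on all untreated arrays, so its change is a bound and the untreated group adds no spread to its p. Its second feature was under the floor on all arrays. NTL8, a factor of salt-regulated seed germination, had 7.37, 6.79 and 6.92 on PEG arrays and 5.14, 5.89 and 5.97 on untreated arrays (adjusted p = 0.0347). ANAC017, which carries signals from mitochondria to the nucleus, had 6.77, 6.91 and 6.87 against 6.14, 5.73 and 6.12 in untreated seeds (adjusted p = 0.0132).

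The lower one was NTM1, a regulator of cell division. PEG arrays had 2.89, 2.71 and 2.99 and untreated arrays 4.83, 5.38 and 5.11. With the floor NTM1 differed by -1.11 (limma adjusted p = 0.00927) and on the deposited values by -2.25, which passed both limits. All PEG values lie under the floor, so -1.11 is a bound without spread after PEG, and -2.25 is not read as measured. Its second feature, which lies lower, had -0.58 (adjusted p = 0.185) with the floor and -1.69 on the deposited values, under the fold limit.

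Of 9 genes listed as regulators or partners of these NAC factors, 2 were called, both higher after PEG. The share called among all genes was 2.72 %, with 1.08 % higher and 1.64 % lower. The median log2 fold change of the list was 0.71, beside 0.00 over all genes, a value set by the floor. ABF1, a bZIP factor that binds ABA-responsive elements, was under the floor on all untreated arrays and at 7.44, 7.51 and 7.33 on PEG arrays. It rose by at least 3.43 (limma adjusted p = 8e-05), since the untreated level is a bound. The floor also leaves no spread in the untreated group, which enters this p. ZFHD1, a homeodomain protein that binds the ERD1 promoter together with NAC factors, had 6.67, 6.43 and 6.54 after PEG and 4.21, 4.87 and 4.39 in untreated seeds. It rose by 2.06 (adjusted p = 0.00380), but lost the call without PEG replicate 1, PEG replicate 2, PEG replicate 3, untreated replicate 1 or untreated replicate 3, where the adjusted p was up to 0.0217.

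SCL14, a GRAS protein that activates ANAC032 and other detoxification genes, passed the limit on p (1.57, limma adjusted p = 0.00748). Its level was 7.87, 7.52 and 7.63 on PEG arrays and 6.37, 5.76 and 6.17 on untreated arrays, without overlap. MYC2, the jasmonate regulator upstream of ANAC019 and ANAC055, differed by -0.92 (adjusted p = 0.0374). The stress-related bZIP factors ABF2 (0.71, adjusted p = 0.0352) and bZIP60 (0.50, adjusted p = 0.0233) had small positive differences, and ABF3 varied among the PEG arrays, with 4.48, 5.74 and 5.74 against 6.30, 6.49 and 6.36 in untreated seeds.

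Of 16 genes reported as targets of the 9 factors, 2 were called, both higher after PEG, and 5 were under the floor on all arrays. Of all genes 2.72 % were called, 1.08 % higher and 1.64 % lower. The median log2 fold change of the list was 0.02, beside 0.00 over all genes, a value set by the floor. ABI5, the bZIP factor of ABA responses in seeds whose expression NAC060 is known to limit, had 8.94, 8.93 and 8.99 on PEG arrays and 5.66, 5.62 and 5.73 on untreated arrays. It rose by 3.29 (SE 0.04, limma adjusted p = 5.23e-05).

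NYE1, which starts the breakdown of chlorophyll and is a target of RD26, ANAC019 and ANAC055, had 7.76, 7.05 and 7.32 after PEG and 4.91, 4.79 and 4.90 in untreated seeds. It rose by 2.51 (limma adjusted p = 0.00249), whereas RD26 differed by -1.51 on the same arrays. NYE1 lost the call without PEG replicate 3, untreated replicate 1, untreated replicate 2 or untreated replicate 3, with adjusted p up to 0.0156. ICS1, a salicylic acid synthesis gene repressed by the same trio, had 2.96, 4.25 and 4.00 on PEG arrays and 5.82, 6.16 and 5.85 on untreated arrays (-1.86, adjusted p = 0.00174), and without the floor its change of -2.21 passed both limits.

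ERD1, the gene whose promoter RD26, ANAC019 and ANAC055 bind, had 5.81, 5.50 and 5.48 after PEG and 5.55, 5.68 and 5.41 in untreated seeds. The groups overlapped and the difference was 0.05 (SE 0.13, limma adjusted p = 1). It was smaller than the SD between replicates, 0.19 after PEG and 0.14 in untreated seeds. NCED3, NIT2 and VSP1, reported targets of ATAF1, ATAF2 and ANAC019 in this order, were among the genes under the floor. TRE1, the trehalase gene activated by ATAF1, was above the floor only on PEG arrays, with 4.69, 4.76 and 4.32 (0.59 with the floor, adjusted p = 0.0326).

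**Figure D5:**
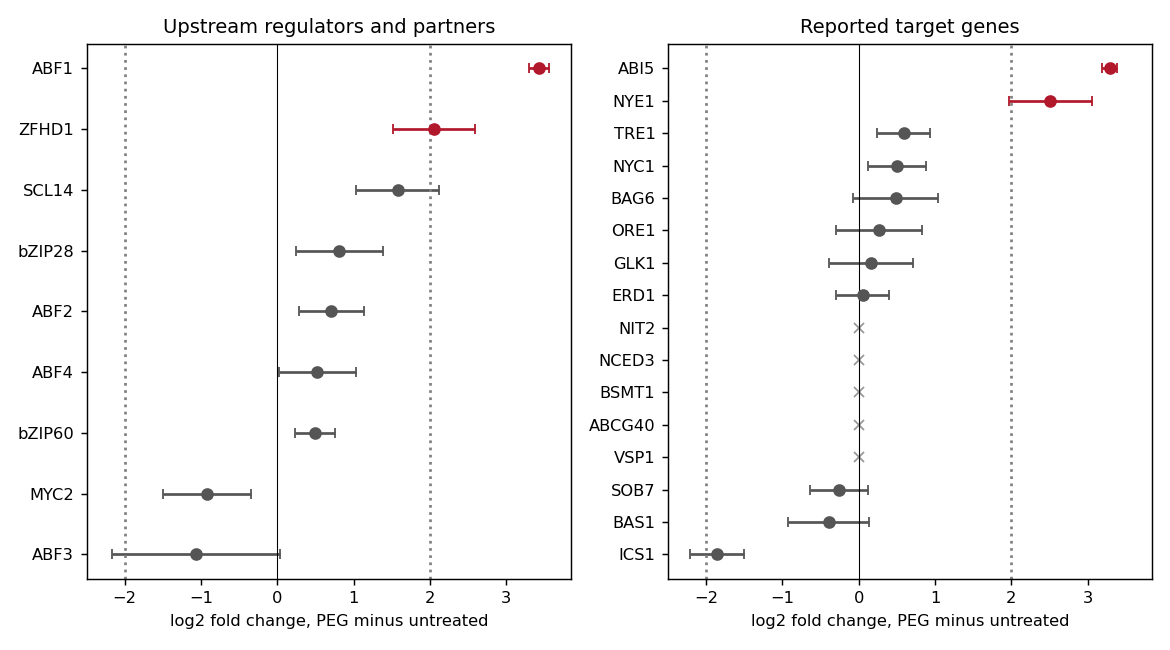
Log2 fold change (PEG minus untreated, horizontal axis) with 95 % intervals from limma for 9 regulators or partners (left) and 16 reported targets (right) of the NAC factors, n = 3 arrays per group. Red marks genes past both limits, crosses genes under the floor on all arrays and dotted lines the fold limit. ABF1, ZFHD1, ABI5 and NYE1 are red.

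For the genes with the highest and the lowest log2 fold change of the 9 with the floor, the transcripts with the most similar pattern over the 6 arrays were sought among 16057 genes. NAC089 was followed most closely by AT3G18570 (r = 0.9999), EXO70H6 (r = 0.9997) and LTI78, also known as RD29A and a classical gene of cold and drought stress (r = 0.9992). Their log2 fold changes were 2.84, 1.72 and 2.39. RD26 was followed most closely by DTX1 (r = 0.999), a detoxification transporter, ELP (r = 0.998) and GME (r = 0.998), an enzyme of ascorbate synthesis, with changes of -1.98, -1.57 and -0.51. With 2 groups of 3 arrays r mostly reflects the step between the groups, and these values are descriptions only.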

How the data were processed

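Transcripts were measured on 6 Affymetrix arrays, 3 per group, grouped by the sample titles. The deposited table gives log2 expression for 35986 gene models, which belong to 27981 genes. RMA is named in the submitters' processing notes. Its version, the probe definition and the genome build of these arrays are not given in the sources used here. No array pair was identical. Symbols were taken from the RefSeq TAIR10.1 gene table, which matched 27241 genes (97.4 %). Its coordinates were used only to find overlapping genes.

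Values under 4 were set to 4. The fit used lmFit and eBayes of limma 3.58.1 under R 4.3.3, with no covariate, on all features with Benjamini-Hochberg adjustment, and called at 0.01 and a log2 fold change of 2. The methods do not state whether p was adjusted. Summed marker levels are log2 of the sum of linear values. The procedure was tested on simulated data. Figures were drawn in Python 3.11.15. Other NAC genes are those with a symbol or synonym of NAC, ANAC or NTL and digits, except 1 nitrate transporter.

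Named were all 9 members, the NAC genes the study names, other NAC genes called (5 largest per direction, had there been any), listed genes called or at an adjusted p of 0.01 or less, and the 3 transcripts most like the extreme members. Any further gene, including other NAC genes past the limit on p, was picked with its values known. Members and lists were chosen with earlier results of these data known. Pairs of members were to be formed by protein identity. No protein sequences were used here, so pairs follow known family relations. Promoters were not analysed here. Same-numbered arrays did not deviate together, so the numbers were not taken as pairs, though a shared seed harvest is not excluded. The number of arrays limits the precision.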

Additional observations from a re-analysis of the deposited data

How the results depend on the processing

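None of the log2 fold changes of 23 tested genes changed sign under the alternatives tried, where ANAC019 and ANAC055 have no change with the floor. With the floor set at 5 in place of 4, 1 of the 9 genes was called (NAC089) and 1 regulator (ABF1). Without the floor 3 other NAC genes were called, 1 of them membrane-tethered (NTM1), and the same counts of 3 and 1 came from the filter on low values without the floor, a combination added after the values were seen. A fold limit of 1 called 5 other NAC genes, 1 of them membrane-tethered. A fold limit of 1 with an adjusted p of 0.05, also added, called 7 of the 9 genes and 9 other NAC genes, 3 of which are membrane-tethered, where it called 13 % of all genes. The number of the 9 genes past the limit on p at any fold was 3, and it was 7 without the floor, at an adjusted p of 0.05, with the filter on low values, with a trended and robust prior and in both added settings, and 6 at an unadjusted p of 0.01. The cause was not tested. The change in the difference between NAC089 and NAC060 was 0.10 with the floor and -1.38 without it. Quantile normalization and centring of array medians moved no count by over 1.5 times.

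Leaving out each array in turn gave 0 to 2 called genes of the 9, 0 to 1 other NAC genes, no membrane-tethered one (0 in each fit), 1 to 2 targets and 1 to 2 regulators, and 0 to 3 of the 9 genes past the limit on p. Where none of the 9 was called by limma, 7 still had an unadjusted p under 0.05 and NAC089 and NAC060 also passed the fold limit. With the filter on low values, 2 of the 9 were called without any one array and 6 to 7 passed the limit on p, NAC060 through its PEG arrays alone, beside 0 to 2 other NAC genes called. Centring moved the adjusted p of ANAC102 to 0.0110, past the limit. The differences between pairs changed by 0.01 to 0.20 (NAC089 and NAC060), -0.14 to 0.06 (ATAF1 and ANAC032), -0.09 to 0.15 (ATAF2 and ANAC102) and 2.30 to 3.02 (ATAF1 and ATAF2).

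With the replicate number as a block, limma called 0 of the 9 genes, 1 target (ABI5) and 0 regulators, and 0 of the 9 passed the limit on p, with adjusted p = 0.0411 for NAC089 and 0.0342 for NAC060. At an unadjusted p under 0.05, 7 of the 9 passed with the block. Over all features the block called 25, against 990 without it. Deviations of same-numbered arrays from their group means correlated at -0.11, -0.02 and 0.05, and those of differently numbered arrays at -0.14 to 0.12. These values do not decide whether same-numbered arrays share a seed harvest.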
